A study of Mus with 15 samples.

Results

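CD25, the alpha chain of the interleukin-2 (IL-2) receptor, divided sorted mouse CD4 single-positive (CD4SP) thymocytes into positive and negative gates, and the 6 libraries of the positive gates were compared with the 6 of the negative ones by bulk RNA sequencing. These 12 libraries were chosen by their gate labels from 15 in the series, and the 3 of a Bst2+ gate, which mixes CD25 and FOXP3 states, were left out. Of 15648 genes tested, 1793 differed between CD25-positive and CD25-negative gates in the same direction whether or not the cells expressed FOXP3, the transcription factor of regulatory T cells (Tregs), and these shared genes are described here. In the CD25-positive gates, genes of the Treg signature, ribosome biogenesis and cholesterol synthesis were among the shared genes that were higher, IL-2 receptor signalling genes were found in both directions, and GIMAP and thymic egress genes, interferon-stimulated genes and the early growth response factors were among those that were lower.

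The cells came from female mice of the C57Bl/6 x Foxp3-GFP strain, 6 weeks of age, whose thymus was dissociated mechanically and depleted of CD8-positive cells before sorting. All gates took live TCRb+CD4+CD8- cells without CD73, and the 4 gates used here also excluded Bst2. Conventional CD4SP cells were CD25-Foxp3-, CD25+ progenitors were CD25+Foxp3-, FOXP3lo progenitors were CD25-Foxp3lo and mature Tregs were CD25+Foxp3+. The CD25 effect is the mean of CD25+ progenitors and mature Tregs minus the mean of conventional cells and FOXP3lo progenitors. It averages a contrast without FOXP3 (CD25+ progenitors minus conventional cells) and a contrast with FOXP3 (mature Tregs minus FOXP3lo progenitors), which have no library in common but share 1 estimate of spread. The gates of the contrast with FOXP3 also differ in the level of FOXP3 by their definition, so CD25 and the FOXP3 level cannot be told apart within it. Each gate had 3 libraries, 1 for each biological replicate of the same sort, with the numbers 40, 42 and 43. Nothing states whether a replicate was a mouse or a pool, so p-values measure the spread between these samples, which may be technical.

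IL-2 binds a receptor of CD25, the beta chain CD122 and the common gamma chain, and CD25 raises the affinity of this receptor for IL-2. Binding activates the kinases JAK1 and JAK3 and the transcription factor STAT5, which induces Il2ra itself and Foxp3. In the thymus, developing Tregs arise from CD4SP cells that receive strong T cell receptor (TCR) signals, through precursors with CD25 alone or with low FOXP3 alone, and gain the mature state with IL-2.

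The 12 libraries held 12597114 to 23758157 assigned counts and 18355 to 23382 genes with a count. Levels are CPM, each library's counts scaled to a common total after TMM normalization, and are listed for replicates 40, 42 and 43 in that order. Differences are on the log2 scale ± standard error. Adjusted p-values come from the quasi-likelihood test of edgeR, by the Benjamini-Hochberg method over all genes tested. A gene was called at an adjusted p under 0.05. In bulk RNA, fewer cells of a type and less RNA per cell cannot be told apart. On principal components of log2 CPM, the component with 27.36% of the variance separated the gates by FOXP3, and the next, with 22.16%, separated all CD25-positive libraries (−53.85 to −27.33) from all CD25-negative ones (25.38 to 52.9).

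**Figure D1:**
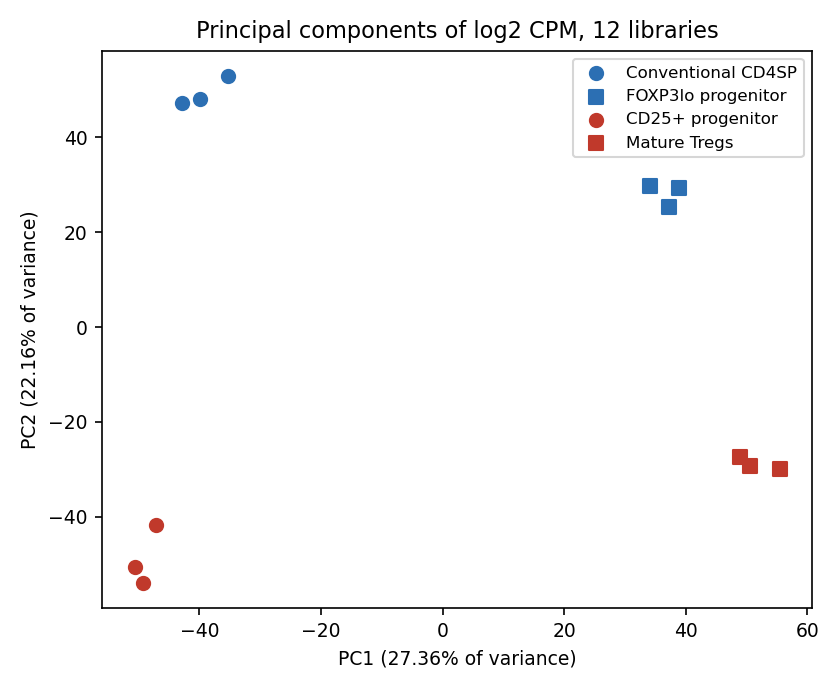
Principal components of log2 CPM in the 12 libraries, with the share of variance on each axis, colours for CD25 (red positive, blue negative) and shapes for FOXP3 (squares with, circles without). The 3 libraries of each gate lie together, and the vertical axis separates the CD25 gates.

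Il2ra, the gene of the sorted protein (ENSMUSG00000026770, chromosome 2 from 11642807 to 11693193), was at 296, 283 and 292 CPM in CD25+ progenitors and 1162, 1183 and 1125 in mature Tregs, against 10.4, 7.49 and 9.48 in conventional cells and 105, 101 and 118 in FOXP3lo progenitors. All CD25-positive libraries lay above all CD25-negative ones, but the FOXP3lo gate, which excluded surface CD25, held more Il2ra RNA than conventional cells. The CD25 effect on Il2ra was 4.196 ± 0.059 (adjusted p = 8.07e-39), with 4.97 ± 0.090 without FOXP3 and 3.43 ± 0.076 with it. Foxp3 (ENSMUSG00000039521, chromosome X from 7573644 to 7595245) was itself a shared gene. It was at 4.21, 1.83 and 3.62 CPM in CD25+ progenitors and 535, 616 and 651 in mature Tregs, against 0.772, 1.57 and 0.523 in conventional cells and 298, 273 and 302 in FOXP3lo progenitors. It was low in both gates sorted as Foxp3-, at most 4.21 CPM. Foxp3 was higher on the CD25-positive side of each contrast, by 1.82 ± 0.37 (adjusted p = 0.00213) without FOXP3 and 1.05 ± 0.14 (adjusted p = 9.55e-05) with it. The gates were sorted by CD25 and Foxp3. The direction of Il2ra in both contrasts, and of Foxp3 in the contrast with FOXP3, was thus built into the sort, and these p-values add no support. With the 3 Bst2+ libraries added to the fit, Foxp3 was no longer shared. Cd4, the co-receptor of the sort, was lower in the CD25-positive gates, with means of 686 ± 16.2 CPM in CD25+ progenitors and 533 ± 9.45 in mature Tregs, against 863 ± 59.2 in conventional cells and 679 ± 41.3 in FOXP3lo progenitors (SD, n = 3). The constant genes of the TCR beta chain, Trbc1 and Trbc2, were also shared lower genes, with CD25 effects of −0.70 ± 0.054 and −0.57 ± 0.054, and their reads can be split between near-identical copies.

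The CD25 effect was called for 5133 genes (32.8% of those tested), 2575 higher (16.5%) and 2558 lower (16.3%). Without FOXP3, 29.0% of genes were called, 2302 higher (14.7%) and 2232 lower (14.3%) in the CD25-positive gate. With FOXP3, 18.7% were called, 1466 higher (9.37%) and 1453 lower (9.29%). Both contrasts called 886 genes higher (5.66% of genes tested), which were 38.5% of the higher genes without FOXP3 and 60.4% of those with it. Both called 907 genes lower (5.80%), which were 40.6% and 62.4% of the lower genes of the respective contrasts. A further 166 genes were called in both with opposite signs, 70 of them higher without FOXP3 and lower with it (0.447%) and 96 the reverse (0.613%), so 91.5% of the 1959 genes called in both contrasts had the same sign. A fit of all 15 libraries, in which 1 estimate of spread also covers the Bst2+ gate, called 265 higher and 234 lower shared genes, all of them among those above. Of 99 shared genes named here, 34 were not shared in that fit, and these were Car8, Pdzk1ip1, Serpine2, Ly6a, Man1c1, Foxp3, Cd4, Stat5a, Rgs16, Gimap4, Ms4a6b, Myb, Cd24a, Ccr6, S1pr1, Slc16a3, Srebf2, Ddx58, Slfn8, Nlrc5, Trgc2, Trgc1, Xcl1, Irf8, Cd74, Nfkbia, Ldb1, Egr3, Nab2, Dntt, Jak3, Ly6e, Pdia3 and Tbx21. Across all genes tested, which are not independent replicates, the log2 differences of the contrasts had a Pearson correlation of 0.302 and a Spearman correlation of 0.379. An averaged effect did not require a shared one: of the 2575 genes higher on average, 886 (34.4%) were shared, 1038 were called in the contrast without FOXP3 alone, 339 in that with FOXP3 alone and 312 the same way in neither.

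**Figure D2:**
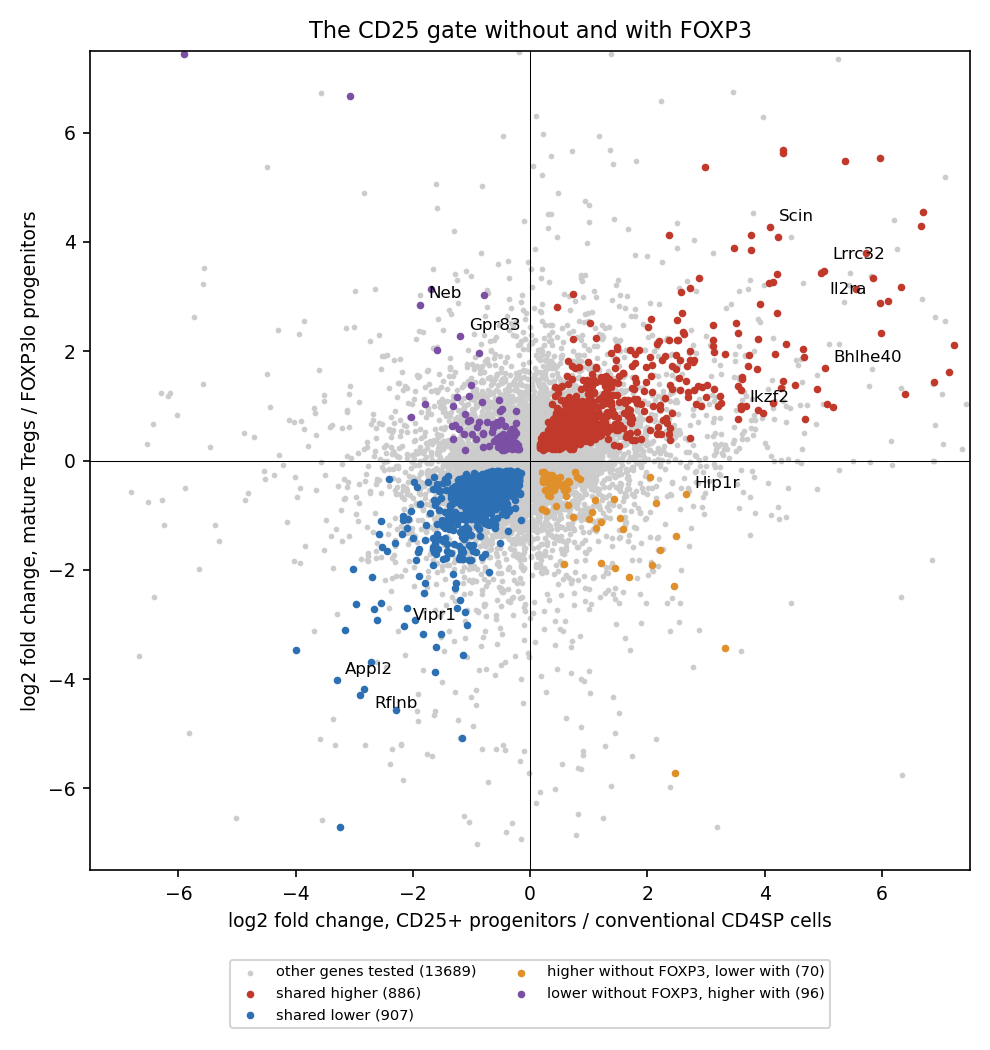
Log2 difference of each gene tested in the contrast without FOXP3 (horizontal) and with FOXP3 (vertical), coloured by whether both contrasts called it. The 886 shared higher genes lie at the upper right, the 907 shared lower genes at the lower left, and the 166 genes called with opposite signs in the other corners, while 18 genes lie beyond the axes.

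Most shared differences were moderate. The median difference of shared higher genes was 0.73 without FOXP3 and 0.59 with it, and that of shared lower genes −0.66 and −0.48, while the medians over all genes tested were −0.013 and 0.0025. More than 2-fold in both contrasts were 186 higher and 111 lower genes, and more than 4-fold 55 and 16. In 398 shared higher genes (44.9%) all 6 CD25-positive libraries lay above all 6 CD25-negative libraries, as for 3.36% of all genes tested, and in 505 shared lower genes (55.7%) all lay below, as for 4.36%. The shared genes were chosen by differences between these same libraries, so a higher share than over all genes was built into the choice. The shared genes were abundant, with a median level of 51.3 CPM for higher and 84.7 CPM for lower ones against 12.5 CPM over all genes tested, and the part of abundance in their calls was not tested. Just inside the rule was Ldb1, at adjusted p = 0.0499 in the contrast with FOXP3. Just outside were Tmem154, at adjusted p = 0.0501 in that contrast, and Pik3c2b, at adjusted p = 0.0501 in the contrast without FOXP3.

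IL-2 receptor signalling genes split between both directions. Of 28 genes of IL-2 and STAT5 signalling tested, 8 were shared higher and 5 shared lower, and the median log2 differences were −0.20 without FOXP3 and 0.74 with it. Beside this and the later lists, 5.66% of all genes tested were shared higher and 5.80% shared lower. In the CD25 effect 16.5% of all genes tested were called higher and 16.3% lower. Il2rb, the CD122 chain, was at 161, 160.1 and 182 CPM in CD25+ progenitors and 665, 626 and 681 in mature Tregs, against 19.98, 21.7 and 31.001 in conventional cells and 199, 165 and 186 in FOXP3lo progenitors. It rose in both contrasts, by 2.796 ± 0.12 without FOXP3 and 1.84 ± 0.11 with it, but FOXP3lo progenitors held as much of it as CD25+ progenitors, so CD25-positive and CD25-negative libraries overlapped. Cish, a STAT5-induced inhibitor of cytokine receptors (ENSMUSG00000032578, chromosome 9 from 107296026 to 107302784), was at 77.97, 72.5 and 82.2 CPM in CD25+ progenitors and 212, 191 and 207 in mature Tregs, against 15.9, 15.2 and 15.9 in conventional cells and 51.8, 54.4 and 55.1 in FOXP3lo progenitors. Cish had no overlap between CD25-positive and CD25-negative libraries and a CD25 effect of 2.11 ± 0.063 (adjusted p = 3.89e-27). Stat5a was at 189, 189 and 207 CPM in CD25+ progenitors and 292, 305 and 307 in mature Tregs, against 84.6, 86.5 and 91.4 in conventional cells and 162, 153 and 175 in FOXP3lo progenitors. For Stat5a the CD25 effect was 1.02 ± 0.051 (adjusted p = 7.64e-20), and its call in both contrasts was lost in the fit of all 15 libraries.

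Bcl2l1, which encodes the survival protein BCL-XL, was at 133, 139 and 145 CPM in CD25+ progenitors and 105, 96.9 and 107 in mature Tregs, against 53.9, 58.2 and 62.4 in conventional cells and 39.8, 33.004 and 34.1 in FOXP3lo progenitors. Bcl2l1 had a CD25 effect of 1.396 ± 0.064 (adjusted p = 6.99e-21). Its lowest levels were in FOXP3lo progenitors and its highest in CD25+ progenitors. Cdk6, a kinase that drives cells into the cycle, followed the same order of gates, with a CD25 effect of 1.39 ± 0.066, and Myc, the growth-promoting transcription factor, rose by 0.46 ± 0.098 without FOXP3 and 0.97 ± 0.099 with it. The shared lower members were both kinases of the receptor, Jak1 and Jak3, the survival kinase Pim2, the cyclin Ccnd3 and the transcription inhibitor Id2. Another 6 members of the list moved in opposite directions. Among them the feedback inhibitor Socs3 was at 7.06, 8.01 and 4.84 CPM in CD25+ progenitors and 16.3, 30.02 and 24.5 in mature Tregs, against 19.5, 13.9 and 16.6 in conventional cells and 15.7, 15.997 and 14.2 in FOXP3lo progenitors. Socs3 fell by 1.33 without FOXP3 and rose by 0.63 with it, and the survival gene Bcl2 fell by 0.90 and rose by 0.61.

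**Figure D3:**
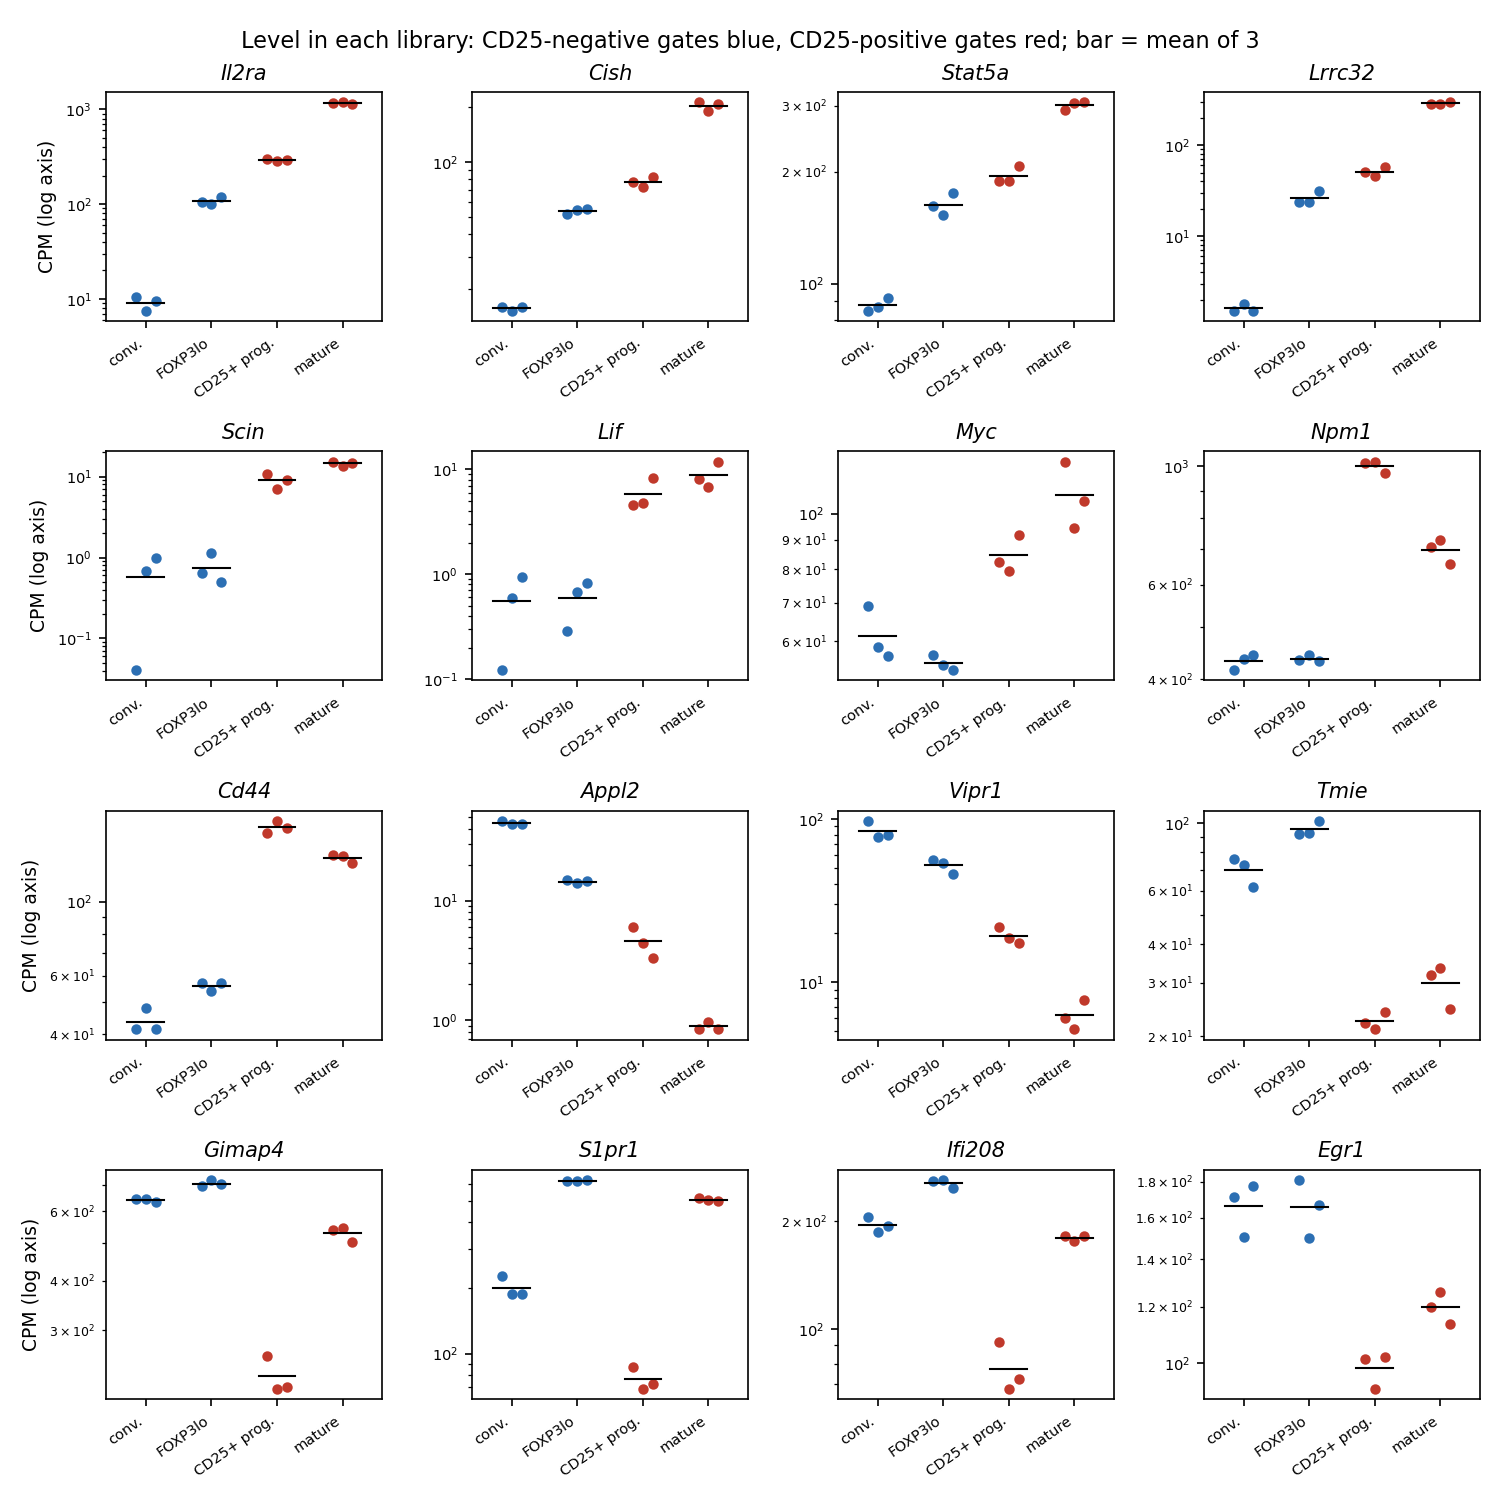
Level in CPM (log axis) of 16 shared genes in each of the 12 libraries, 1 panel a gene, with a bar at the mean of each gate and colours for CD25 (red positive, blue negative). Il2ra, Scin and Npm1 are higher in every CD25-positive library and Appl2 and Gimap4 lower, while the S1pr1 levels of mature Tregs lie above those of conventional cells.

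The 12 shared higher genes with separate libraries and the largest value of the smaller of both differences came from several functions. Scin, an actin-severing protein (ENSMUSG00000002565, chromosome 12 from 40059769 to 40134228), was at 10.9, 7.05 and 9.15 CPM in CD25+ progenitors and 15.3, 13.7 and 14.8 in mature Tregs, against 0.0406, 0.674 and 0.989 in conventional cells and 0.636, 1.12 and 0.495 in FOXP3lo progenitors. It was low in every CD25-negative library and differed by 4.096 ± 0.45 without FOXP3 and 4.27 ± 0.43 with it (CD25 effect adjusted p = 4.1e-14). Lif, the cytokine leukemia inhibitory factor (ENSMUSG00000034394, chromosome 11 from 4257557 to 4272514), was at 4.58, 4.77 and 8.301 CPM in CD25+ progenitors and 8.12, 6.81 and 11.8 in mature Tregs, against 0.122, 0.599 and 0.931 in conventional cells and 0.289, 0.674 and 0.825 in FOXP3lo progenitors. Lif had a CD25 effect of 3.68 ± 0.35 (adjusted p = 1.41e-11). Nkg7, a protein of cytotoxic granules, was at 3.28, 3.85 and 4.895 CPM in CD25+ progenitors and 10.7, 3.68 and 9.43 in mature Tregs, against 0, 0.973 and 0.0582 in conventional cells and 0.231, 0.168 and 0.935 in FOXP3lo progenitors, with 3.77 ± 0.87 without FOXP3 and 4.12 ± 0.82 with it. For these 3 genes no difference between the contrasts was called (interaction adjusted p = 0.937 for Scin, 0.832 for Lif and 0.933 for Nkg7).

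Lrrc32, which encodes GARP, the protein that holds latent TGF-beta on the Treg surface (ENSMUSG00000090958, chromosome 7 from 98489283 to 98502181), was at 51.2, 45.4 and 57.4 CPM in CD25+ progenitors and 287, 281 and 295 in mature Tregs, against 1.503, 1.796 and 1.51 in conventional cells and 23.6, 23.7 and 31.1 in FOXP3lo progenitors. Its CD25 effect was 4.24 ± 0.088 (adjusted p = 8.49e-33), and levels rose from conventional cells through FOXP3lo and CD25+ progenitors to mature Tregs. Sdc4, the heparan sulfate proteoglycan syndecan-4, kept the same order of gates, at 1.44, 7.65, 17.1 and 38.8 CPM on average (CD25 effect 2.94 ± 0.17). Notch3, a Notch receptor expressed by immature thymocytes, ran otherwise, at 31.1, 23.2 and 21.7 CPM in CD25+ progenitors and 7.03, 4.72 and 7.28 in mature Tregs, against 2.56, 1.796 and 2.15 in conventional cells and 0.752, 1.46 and 1.1003 in FOXP3lo progenitors. It was highest in CD25+ progenitors, and mature Tregs exceeded FOXP3lo progenitors (3.52 ± 0.28 without FOXP3 and 2.51 ± 0.30 with it).

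The rest included enzymes and transporters. Bcat1, the cytosolic aminotransferase of branched-chain amino acids (ENSMUSG00000030268, chromosome 6 from 144993835 to 145076184), was at 25.3, 31.9 and 32.9 CPM in CD25+ progenitors and 11.5, 8.96 and 8.19 in mature Tregs, against 0.203, 0.674 and 0.6398 in conventional cells and 1.68, 1.85 and 2.09 in FOXP3lo progenitors, and its difference of 5.99 ± 0.32 without FOXP3 exceeded that of 2.34 ± 0.27 with it (interaction adjusted p = 2.26e-08). Slc43a1, a transporter of large neutral amino acids, had a CD25 effect of 2.64 ± 0.29, and Hk2, the hexokinase that starts glycolysis, was at 14.2, 16.7 and 21.6 CPM in CD25+ progenitors and 13.6, 10.6 and 12.9 in mature Tregs, against 3.899, 2.395 and 2.68 in conventional cells and 2.37, 2.41 and 3.19 in FOXP3lo progenitors, an effect of 2.37 ± 0.19 (adjusted p = 1.19e-13). Car8, a carbonic anhydrase-related protein, Pdzk1ip1, a small membrane protein, and Serpine2, a protease inhibitor, had CD25 effects of 4.598, 4.42 and 3.06 and were each highest in CD25+ progenitors on average. These 3 were not shared in the fit of all 15 libraries.

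Among the 12 shared lower genes chosen the same way, Appl2, an endosomal adaptor (ENSMUSG00000020263, chromosome 10 from 83600033 to 83648738), stood at the head. It was at 6.01, 4.41 and 3.299 CPM in CD25+ progenitors and 0.837, 0.973 and 0.845 in mature Tregs, against 46.4, 43.3 and 44.1 in conventional cells and 14.8, 13.9 and 14.6 in FOXP3lo progenitors. Appl2 fell by 3.29 without FOXP3 and 4.01 with it (adjusted p = 1.8e-21 for the CD25 effect). Vipr1, the receptor of vasoactive intestinal peptide VPAC1 (ENSMUSG00000032528, chromosome 9 from 121642716 to 121672954), was at 21.7, 18.6 and 17.3 CPM in CD25+ progenitors and 6.03, 5.14 and 7.803 in mature Tregs, against 97.1, 77.6 and 79.5 in conventional cells and 55.9, 53.6 and 46.2 in FOXP3lo progenitors. Vipr1 had a CD25 effect of −2.59 ± 0.10 (adjusted p = 2.52e-23). Both genes fell in the order of conventional cells, FOXP3lo progenitors, CD25+ progenitors and mature Tregs. Ggt5, a gamma-glutamyltransferase that acts on leukotriene C4, kept this order too, at 18.4, 8.12, 2.46 and 0.402 CPM on average (CD25 effect −3.599 ± 0.24), and Hs3st3b1, a heparan sulfate sulfotransferase, had means of 56.2, 15.4, 8.904 and 2.31 CPM in the same order (−2.69 ± 0.30).

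Rflnb, a filamin-binding regulator of actin (ENSMUSG00000020846, chromosome 11 from 76019194 to 76027782), was at 6.502, 5.42 and 2.02 CPM in CD25+ progenitors and 0.921, 4.03 and 0.975 in mature Tregs, against 37.5, 35.9 and 25.5 in conventional cells and 39.5, 37.9 and 32.3 in FOXP3lo progenitors. Rflnb had a CD25 effect of −3.51 ± 0.36 (adjusted p = 3.74e-05). Its FOXP3 effect (the mean of both gates with FOXP3 minus that of both without) was not called at −0.53 ± 0.36 (adjusted p = 0.302). Tmie, known as a part of the hair-cell mechanotransduction channel, was at 22.1, 21.1 and 24.1 CPM in CD25+ progenitors and 31.8, 33.4 and 24.6 in mature Tregs, against 76.2, 72.98 and 61.5 in conventional cells and 92.2, 92.8 and 101 in FOXP3lo progenitors. For Tmie the CD25 effect was −1.66 ± 0.081 (adjusted p = 4.33e-20). Apol7e, an apolipoprotein L family gene with close paralogs to which reads could be misassigned, had means of 68.7 ± 4.05 and 70.9 ± 3.92 CPM in the CD25-negative gates and 18.5 ± 2.56 and 16.3 ± 3.22 in CD25+ progenitors and mature Tregs (SD, n = 3). Rapgef4, Man1c1 and Ly6a kept the order of Appl2 and Vipr1, and the others had no such order. Rapgef4, the cyclic AMP-activated exchange factor EPAC2, fell by 1.62, Cnga1, a cyclic nucleotide-gated channel subunit, by 2.44, and Man1c1, a Golgi mannosidase, by 2.05. Slc28a2b, of a nucleoside transporter family with a close paralog, fell by 2.41, and Ly6a, the surface antigen Sca-1, fell by 2.503. Ly6a and Man1c1 were not shared in the fit of all 15 libraries.

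Treg signature genes were mostly higher on the CD25-positive side, though not all of them in both contrasts. Of 32 signature genes tested, 28 rose and 1 fell in the CD25 effect, 17 were shared higher, and the median log2 differences were 1.42 without FOXP3 and 1.19 with it. Without FOXP3, 20 were called higher and 3 lower, and with it 25 and 1. Gpr83 and Izumo1r were called with opposite signs, falling without FOXP3 and rising with it. The list also held Nt5e, the gene of CD73, which all gates excluded. In the fit of all 15 libraries 11 were shared higher. Ikzf2, which encodes Helios (ENSMUSG00000025997, chromosome 1 from 69531214 to 69687245), was at 1108, 1197 and 1186 CPM in CD25+ progenitors and 1137, 1060.5 and 1270.2 in mature Tregs, against 93.5, 94.9 and 98.8 in conventional cells and 566, 569.7 and 660.1 in FOXP3lo progenitors. CD25+ progenitors held about as much of it as mature Tregs, but FOXP3lo progenitors held more than conventional cells. The difference of 3.604 ± 0.075 without FOXP3 thus exceeded the 0.95 ± 0.067 with it (interaction adjusted p = 1.89e-23). Swap70, a regulator of actin and Rac, showed a CD25 effect of 1.62 ± 0.055. Ctla4, the inhibitory receptor, was at 33.3, 21.2 and 29.2 CPM in CD25+ progenitors and 215, 179 and 209 in mature Tregs, against 10.2, 12.4 and 11.2 in conventional cells and 90.2, 84.9 and 96.4 in FOXP3lo progenitors. Although it rose by 1.32 ± 0.12 without FOXP3 and 1.15 ± 0.11 with it, FOXP3lo progenitors exceeded CD25+ progenitors. Coro2a, an actin-binding coronin, was at 0.302, 12.04, 5.89 and 116 CPM on average in conventional cells, FOXP3lo progenitors, CD25+ progenitors and mature Tregs (CD25 effect 3.71 ± 0.15). The member that fell in both contrasts was Satb1, a chromatin organizer active from the precursor stage. It was at 1645, 1666 and 1496 CPM in CD25+ progenitors and 1268, 1250.5 and 1149 in mature Tregs, against 3222, 3301 and 3753 in conventional cells and 1930.5, 1929.7 and 1859 in FOXP3lo progenitors. For Satb1 the CD25 effect was −0.87 ± 0.044 (adjusted p = 1.38e-19).

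Genes induced by TCR signals did not move as 1 group. Of 30 tested, 17 rose and 9 fell in the CD25 effect, 9 were shared higher and 5 shared lower, and the median log2 differences were 0.95 without FOXP3 and −0.036 with it. Nr4a3, an orphan nuclear receptor induced by antigen, was at 388, 406 and 418 CPM in CD25+ progenitors and 322, 321 and 302 in mature Tregs, against 111, 99.3 and 115 in conventional cells and 249, 233 and 233 in FOXP3lo progenitors. Dusp5, a phosphatase that inactivates ERK in the nucleus, was at 194, 207 and 261 CPM in CD25+ progenitors and 139, 149.9 and 139 in mature Tregs, against 68.4, 58.3 and 67.1 in conventional cells and 66.9, 61.2 and 68.7 in FOXP3lo progenitors. They rose by 1.89 ± 0.070 without FOXP3 and 0.40 ± 0.067 with it for Nr4a3 and by 1.77 ± 0.091 without FOXP3 and 1.12 ± 0.090 with it for Dusp5. Rgs16, a brake on G protein signalling, rose by 4.698 ± 0.16 without FOXP3 and 0.75 ± 0.13 with it (interaction adjusted p = 1.11e-18), and Cd83, a membrane protein of activated lymphocytes, by 4.18 ± 0.23 without FOXP3 and 1.96 ± 0.16 with it. The 5 shared lower members were the early growth response factors Egr1, Egr2 and Egr3, their corepressor Nab2 and the ERK phosphatase Dusp6. Egr1 was at 101, 91.97 and 102 CPM in CD25+ progenitors and 119.8, 126 and 113 in mature Tregs, against 171, 150.4 and 178 in conventional cells and 181, 149.8 and 167 in FOXP3lo progenitors. Egr1 had a CD25 effect of −0.62 ± 0.057 (adjusted p = 9.32e-12), with no overlap between CD25-positive and CD25-negative libraries. Egr2 had a CD25 effect of −0.62 ± 0.090, Egr3 of −0.88 ± 0.091, Nab2 of −0.60 ± 0.059 and Dusp6 of −0.75 ± 0.085. Nab2 was not shared without FOXP3lo progenitor replicate 42 or without mature Treg replicate 40. With all 15 libraries 5 members were shared higher and 3 lower. Of 18 dissociation and immediate early genes, 2 were shared higher and 3 lower, and their summed level was 1899.7 to 2018 CPM in conventional cells, 1951 to 2124 in CD25+ progenitors, 2563 to 2755 in FOXP3lo progenitors and 2512 to 2853 in mature Tregs. Their part in the result for Egr1, a member of both lists, was not tested.

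NF-kB genes and TNF receptors were more often higher than lower, though both directions were frequent. Of 34 tested, 20 rose and 10 fell in the CD25 effect, against 16.5% and 16.3% of all genes tested. Shared higher were 10 and shared lower 4, against 5.66% and 5.80% of all genes. Without FOXP3, 20 were called higher and 11 lower, and with it 13 and 4. Birc2 and Nfkbiz fell without FOXP3 and rose with it. The genes described next do not include the 4 shared lower ones. Rel, the NF-kB subunit c-Rel, which binds the Foxp3 gene, was at 225, 222 and 218 CPM in CD25+ progenitors and 429, 426 and 458 in mature Tregs, against 123, 110.0 and 108 in conventional cells and 234, 211 and 234 in FOXP3lo progenitors. Rel rose by 0.96 ± 0.069 without FOXP3 and 0.95 ± 0.068 with it. CD25+ and FOXP3lo progenitors overlapped in Rel, and its CD25 and FOXP3 effects were 0.96 ± 0.049 and 0.99 ± 0.049. Nfkb2 rose by 1.32 ± 0.086 without FOXP3 and 0.59 ± 0.085 with it, the inhibitor Nfkbia by 0.40 ± 0.074 without FOXP3 and 0.63 ± 0.073 with it, and Tnfrsf18, which encodes the costimulatory receptor GITR, by 1.42 ± 0.095 without FOXP3 and 1.21 ± 0.092 with it. Tnfrsf1b, TNF receptor 2, rose without FOXP3 by 2.05 ± 0.090 and had a difference of 0.20 ± 0.086 (adjusted p = 0.104) with it, which was not called (interaction adjusted p = 5.47e-15).

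Most growth genes rose. Of 34 MYC and ribosome biogenesis genes tested, 30 rose and 0 fell in the CD25 effect, 26 were shared higher and 0 lower, and the median log2 differences were 0.62 without FOXP3 and 0.56 with it. With all 15 libraries 17 were shared higher. Npm1, which encodes the nucleolar protein nucleophosmin (ENSMUSG00000057113, chromosome 11 from 33152287 to 33163206), was at 1014, 1019 and 969 CPM in CD25+ progenitors and 707, 729 and 657 in mature Tregs, against 416, 436 and 444 in conventional cells and 434, 444 and 433 in FOXP3lo progenitors. It had nearly equal levels in both CD25-negative gates and a CD25 effect of 0.94 ± 0.043 (adjusted p = 3.99e-21). Ncl, which encodes nucleolin, was at 2169.9, 2127 and 2098 CPM in CD25+ progenitors and 1359, 1424 and 1292 in mature Tregs, against 922, 791 and 931 in conventional cells and 948, 874 and 879 in FOXP3lo progenitors. For Ncl the CD25 effect was 0.93 ± 0.044 (adjusted p = 1.98e-20). Odc1, the rate-limiting enzyme of polyamine synthesis and a MYC target, was at 90.4, 88.9 and 89.9 CPM in CD25+ progenitors and 49.2, 51.1 and 45.3 in mature Tregs, against 28.02, 29.2 and 36.6 in conventional cells and 23.8, 22.9 and 22.9 in FOXP3lo progenitors. For Odc1 the CD25 effect was 1.29 ± 0.079 (adjusted p = 5.23e-17). Utp20, of the small-subunit processome, had a CD25 effect of 0.90 ± 0.060, but conventional cells exceeded mature Tregs (87.03 against 79.5 CPM on average). Of the 26 shared members, 24 were lower with FOXP3 in the FOXP3 effect. That call was made for 50.6% of all shared higher genes and 19.8% of all genes tested.

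Of 34 proliferation genes tested, 8 rose in the CD25 effect, 1 fell and 25 were not called, with a median log2 CD25 effect of 0.084. Of all genes tested, 16.5% rose and 16.3% fell. All 4 shared members were higher, as were 5.66% of all genes tested, and encode subunits of the MCM helicase, which licenses replication origins. Mcm6 was at 182, 181 and 189.5 CPM in CD25+ progenitors and 115, 102 and 102 in mature Tregs, against 98.04, 86.1 and 83.99 in conventional cells and 70.2, 55.1 and 63.2 in FOXP3lo progenitors. Mcm6 had a CD25 effect of 0.90 ± 0.061 (adjusted p = 1.31e-15) with separate libraries. Mcm5 rose by 0.69 ± 0.098 without FOXP3 and 0.94 ± 0.10 with it, Mcm3 by 0.73 ± 0.10 without FOXP3 and 0.73 ± 0.11 with it and Mcm2 by 0.57 ± 0.081 without FOXP3 and 0.61 ± 0.085 with it. Conventional cells exceeded mature Tregs in the mean of Mcm2, Mcm3 and Mcm5. The FOXP3 effect was called lower for all 34 members of the proliferation list tested, against 19.8% of all genes tested.

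Metabolic genes gave smaller groups. Of 21 cholesterol synthesis and uptake genes tested, 12 rose and 0 fell, 9 were shared higher, and the median log2 differences were 0.48 without FOXP3 and 0.59 with it. With all 15 libraries 4 were shared. Srebf2, a transcription factor that controls the pathway, was at 162, 176 and 188 CPM in CD25+ progenitors and 158, 174 and 183 in mature Tregs, against 116, 108 and 113 in conventional cells and 140.1, 139 and 128 in FOXP3lo progenitors. Srebf2 had a CD25 effect of 0.49 ± 0.054 (adjusted p = 6.47e-10). Of 21 glycolysis genes, 13 rose and 2 fell, with 7 shared higher and 1 lower, and 1 higher with all 15 libraries. Beside Hk2, the lactate exporter Slc16a3 rose by 3.13 ± 0.28 without FOXP3 and 1.31 ± 0.26 with it. The shared lower member was Pdk1, a kinase that inhibits the oxidation of pyruvate in the mitochondrion, at 79.7, 77.6 and 67.7 CPM in CD25+ progenitors and 128, 122 and 109 in mature Tregs, against 203, 196 and 176 in conventional cells and 195, 198 and 186 in FOXP3lo progenitors. For Pdk1 the CD25 effect was −1.02 ± 0.057 (adjusted p = 2.27e-18).

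**Figure D4:**
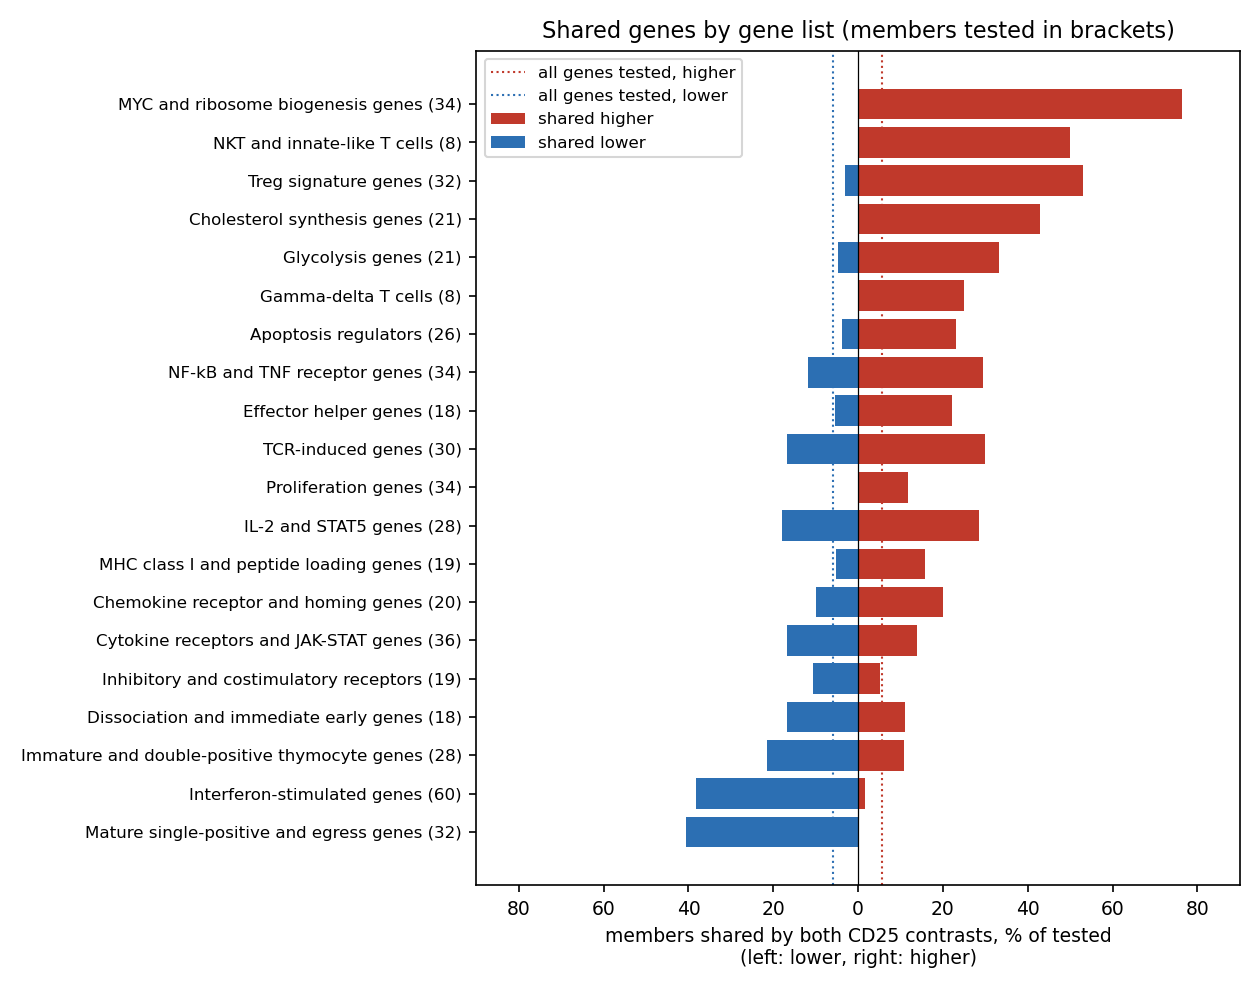
Share of the tested members of each gene list that both CD25 contrasts called higher (red, right) or lower (blue, left), with dotted lines at the share among all genes tested (5.66% higher, 5.80% lower). Members of the MYC and ribosome biogenesis list stand furthest to the right, and those of the egress and interferon lists furthest to the left, of the lists drawn.

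Genes of late CD4SP cells and of thymic egress were mostly lower. Of 32 tested, 0 rose and 26 fell in the CD25 effect, 13 were shared lower, and the median log2 differences were −0.95 without FOXP3 and −0.29 with it. With all 15 libraries 5 were shared lower. Gimap4, a GTPase of the immunity-associated family that rises as thymocytes mature (ENSMUSG00000054435, chromosome 6 from 48684549 to 48692060), was at 259, 214 and 216 CPM in CD25+ progenitors and 538, 543 and 502 in mature Tregs, against 646, 645 and 632 in conventional cells and 693, 718 and 701 in FOXP3lo progenitors. Gimap4 had a CD25 effect of −0.95 ± 0.047 (adjusted p = 6.58e-20) with separate libraries. Gimap3 and the membrane protein gene Ms4a6b had CD25 effects of −0.97 ± 0.047 and −1.07 ± 0.058. S1pr1, the sphingosine-1-phosphate receptor that guides exit from the thymus, was at 86.9, 69.1 and 72.5 CPM in CD25+ progenitors and 517, 506 and 499 in mature Tregs, against 226, 188 and 188 in conventional cells and 618, 615 and 623 in FOXP3lo progenitors. It differed by −1.400 ± 0.077 without FOXP3 and −0.29 ± 0.073 with it, while mature Tregs stayed well above conventional cells. The CD25 effect on S1pr1, Gimap4 and Ms4a6b was no longer shared with all 15 libraries. The transcription factor Klf2, the integrin chain Itgb7 and the survival gene Bcl2 were called with opposite signs, falling without FOXP3 and rising with it, with −0.47 and 0.39 for Klf2 and −0.80 and 0.24 for Itgb7, and Ms4a4c did the reverse.

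Markers of thymocyte immaturity were mixed. Of 28 immature and double-positive thymocyte genes tested, 3 were shared higher and 6 shared lower. The list includes the sort genes Cd8a and Cd4, and Cd4 was among its shared lower members. Cd24a, the antigen lost as single-positive cells mature, was at 92.4, 107 and 104 CPM in CD25+ progenitors and 18.7, 22.1 and 20.03 in mature Tregs, against 23.2, 32.9 and 30.2 in conventional cells and 14.5, 13.8 and 14.1 in FOXP3lo progenitors. It rose by 1.82 ± 0.12 without FOXP3 and 0.52 ± 0.13 with it, with mature Tregs below conventional cells. Myb, a transcription factor of early thymocytes, had a CD25 effect of 1.06 ± 0.053, and Lef1, a partner of TCF1, of −0.84 ± 0.042, at 582, 586 and 562 CPM in CD25+ progenitors and 539.8, 508 and 529.5 in mature Tregs, against 1159, 1119.5 and 1224 in conventional cells and 850.2, 818 and 822 in FOXP3lo progenitors. The recombination genes moved with the CD25+ progenitor gate, with Rag1 at 41.1 to 72.9 CPM there, against 0.698 to 6.14 in the other gates, and Dntt at 60.9 to 90.04 CPM against 2.60 to 28.4. Their part in the shared differences was not tested.

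Interferon-stimulated genes were mostly lower. Of 60 tested, 45 fell and 1 rose in the CD25 effect, 23 were shared lower and 1, Ly6e, higher, and the median log2 differences were −0.68 without FOXP3 and −0.20 with it. The list includes Bst2, which the sort of all 4 gates excluded, and the part of that exclusion was not tested. With all 15 libraries 4 were shared lower. Ifi208, of the DNA-sensing IFI200 family, whose close paralogs can share reads, was at 91.8, 68.1 and 72.5 CPM in CD25+ progenitors and 181, 176 and 182 in mature Tregs, against 206, 186 and 193 in conventional cells and 259.8, 260.3 and 247 in FOXP3lo progenitors. Ifi208 had separate libraries and a CD25 effect of −0.92 ± 0.057 (adjusted p = 8.05e-17). Zbp1, a sensor of Z-form nucleic acids, differed by −1.15 ± 0.082 without FOXP3 and −0.53 ± 0.081 with it, Ddx58, the RNA sensor RIG-I, by −1.06 ± 0.077 without FOXP3 and −0.35 ± 0.075 with it, and Slfn8, a Schlafen family gene, by −0.82 ± 0.074 without FOXP3 and −0.37 ± 0.072 with it. Of the 23 shared lower members, 20 were higher with FOXP3 in the FOXP3 effect. That call was made for 36.9% of all shared lower genes and 19.2% of all genes tested. CD25+ progenitors held the least of the 4 gates in Ifi208, Zbp1, Ddx58 and Slfn8.

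Homing and effector genes also moved. Cd44, the hyaluronan receptor of activated T cells, was at 160.3, 175 and 166 CPM in CD25+ progenitors and 138, 137 and 131 in mature Tregs, against 41.4, 47.9 and 41.5 in conventional cells and 56.99, 53.9 and 56.997 in FOXP3lo progenitors. Cd44 had a CD25 effect of 1.61 ± 0.059 (adjusted p = 4.18e-24), and its FOXP3 effect of 0.031 ± 0.058 was not called. Ccr6, a chemokine receptor, rose by 4.204 ± 0.34 without FOXP3 and 2.700 ± 0.25 with it. Of 18 effector helper genes tested, 4 were shared higher and 1 lower. Bhlhe40, a transcription factor of cytokine-producing T cells, was at 48.4, 48.4 and 57.4 CPM in CD25+ progenitors and 55.6, 57.5 and 46.5 in mature Tregs, against 2.11, 1.42 and 0.989 in conventional cells and 19.96, 13.5 and 16.1 in FOXP3lo progenitors. For Bhlhe40 the CD25 effect was 3.36 ± 0.13 (adjusted p = 1.55e-23). Rora, a nuclear receptor of innate and helper cells, was at 122, 132 and 117 CPM in CD25+ progenitors and 52.9, 64.6 and 65.5 in mature Tregs, against 21.97, 25.9 and 32.3 in conventional cells and 25.3, 35.1 and 35.05 in FOXP3lo progenitors. For Rora the CD25 effect was 1.58 ± 0.088 (adjusted p = 9.93e-18). Of 8 NKT and innate-like genes tested of 16, 4 were shared higher (Il2rb, Nkg7, Tbx21 and Xcl1). Xcl1 was not shared in 8 of 23 alternatives, and with all 15 libraries 2 of the list were shared higher. The summed level of the list was 213 to 241 CPM in CD25+ progenitors and 654 to 713 in mature Tregs, against 25.8 to 34.8 in conventional cells and 179.5 to 215 in FOXP3lo progenitors. Most of that sum was Il2rb alone, whose levels are given above. The defining markers of the list were at or near 0, with Zbtb16 at most 0.867 CPM and Klrb1c at most 0.0507 CPM in any of the 12 libraries.

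In the remaining lists, shared genes stood beside 5.66% higher and 5.80% lower of all genes tested. Of 26 apoptosis regulators 6 were shared higher and 1 lower, of 36 cytokine receptor and JAK-STAT genes 5 and 6, of 20 chemokine receptor and homing genes 4 and 2, and of 19 inhibitory and costimulatory receptors 1 and 2. Of 19 MHC class I and peptide loading genes 3 were shared higher, the endoplasmic reticulum chaperones Calr, Canx and Pdia3, which fold many proteins, and 1, Nlrc5, was lower. In the CD25 effect 4 members of that list rose and 10 fell.

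Markers of other cell types differed by list, and their part in the shared differences was not tested. Of 8 gamma-delta T cell genes tested of 11, the constant genes Trgc1 and Trgc2 were shared higher, though near-identical copies can share their reads. In that list 4 members were called higher and 1 lower without FOXP3, and 2 and 0 with it. Sox13, like Trgc1 and Trdc a defining marker of the list, was not shared. It was at 3.44 to 8.78 CPM in conventional cells and 1.97 to 3.6 in CD25+ progenitors. FOXP3lo progenitors held at most 0.66 CPM of Sox13 and mature Tregs at most 0.67. The CD25 effect on Sox13 was −1.02 (adjusted p = 0.222) and was not called. Trgc1 was not shared in 8 of 23 alternatives, among them DESeq2, limma-voom and each pair of gates fitted alone, and with all 15 libraries 0 of the list were shared higher. Trgc2 was at 17.3, 14.2 and 13.99 CPM in CD25+ progenitors and 1.67, 0.695 and 0.9104 in mature Tregs, against 0, 0.299 and 0.0582 in conventional cells and 0.174, 0.225 and 0.3301 in FOXP3lo progenitors, chiefly a gene of CD25+ progenitors, and its call in both contrasts was lost with limma-voom and with each pair of gates fitted alone. The summed level of that list was 28.4 to 45.1 CPM in conventional cells, 48.95 to 56.6 in CD25+ progenitors, 17.8 to 23.3 in FOXP3lo progenitors and 23.7 to 30.5 in mature Tregs, and Trdc lay between 9.49 and 15.6 CPM throughout. Of 12 B cell genes, 4 were tested, 1 rose and 1 fell in the CD25 effect and 0 were shared. Their summed level was 21.2 to 24.7 CPM in CD25+ progenitors and 36.8 to 43.8 in mature Tregs, against 33.3 to 41.3 in conventional cells and 39.9 to 53.1 in FOXP3lo progenitors. Of 22 dendritic cell and macrophage genes, 7 were tested and 1 was shared, Cd74, at 36.6, 45.9 and 45.6 CPM in CD25+ progenitors and 14.3, 13.3 and 17.4 in mature Tregs, against 12.1, 13.2 and 14.02 in conventional cells and 11.9, 7.97 and 12.1 in FOXP3lo progenitors, whose call was lost in 12 of 23 alternatives. The summed level of that list was 57.9 to 80.5 CPM in CD25+ progenitors and 49.2 to 53.9 in mature Tregs, against 37.7 to 41.8 in conventional cells and 29.7 to 33.6 in FOXP3lo progenitors, and Lyz2 and Csf1r were at most 1.97 and 1.115 CPM. Of 6 plasmacytoid dendritic cell genes tested, 2 rose and 2 fell in the CD25 effect. Irf8 and Tcf4 were shared higher, Irf8 with a CD25 effect of 2.11 ± 0.13, and 1 other member was shared lower. Ccr9, like Irf8 a defining marker of the list, had a CD25 effect of −1.34 (adjusted p = 0.0099) and was not shared. Siglech was at most 0.0550 CPM. That list also held Bst2, which the sort excluded. Of 6 epithelial and stromal genes tested, 2 rose and 1 fell in the CD25 effect, and Pecam1 was shared lower. Epcam, an epithelial adhesion molecule and the defining marker of that list that was tested, was at 9.599, 12.2 and 11.2 CPM in CD25+ progenitors and 9.04, 2.36 and 6.698 in mature Tregs, against 3.21, 2.17 and 2.15 in conventional cells and 5.44, 5.73 and 5.28 in FOXP3lo progenitors. Epcam had a CD25 effect of 1.12 ± 0.23 (adjusted p = 0.000159), with 2.11 ± 0.34 without FOXP3 and 0.13 ± 0.33 with it, and was not called with FOXP3. Krt5, another defining marker, was at 0 in all 12 libraries. The summed level of the list was 203 to 232 CPM in CD25+ progenitors and 316 to 330.0 in mature Tregs, against 260.1 to 304 in conventional cells and 392.2 to 420.0 in FOXP3lo progenitors. The 1 erythroid gene tested was not shared, with Hbb-bs at 0 throughout.

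The FOXP3 effect, a measure that did not choose the shared genes, was called for 38.9% of all genes tested, 19.2% higher and 19.8% lower with FOXP3. Among the 886 shared higher genes it was lower for 448 (50.6%), higher for 245 (27.7%) and not called for 193 (21.8%). Among the 907 shared lower genes it was higher for 335 (36.9%), lower for 236 (26.0%) and not called for 336 (37.0%). Calls were thus more frequent in both groups than over all genes, and the part of their higher abundance was not tested. Among shared higher genes the most frequent order of gate means, in 357, ran from FOXP3lo progenitors through conventional cells and mature Tregs to CD25+ progenitors, as in Bcl2l1 and Cdk6. A further 179 ran from conventional cells through FOXP3lo and CD25+ progenitors to mature Tregs, as in Il2ra, Cish, Stat5a and Lrrc32. Among shared lower genes the most frequent order, in 296, had CD25+ progenitors lowest, then mature Tregs, conventional cells and FOXP3lo progenitors highest, as in Gimap4, Ifi208 and Tmie, and in 262 levels fell from conventional cells through FOXP3lo and CD25+ progenitors to mature Tregs, as in Appl2 and Vipr1.

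The size of the CD25 effect differed between the contrasts for 1698 of all genes tested (10.9%), 5.46% with a higher value with FOXP3 and 5.39% with a lower one. Of the shared higher genes, 171 had a larger difference without FOXP3, 18 a larger one with it, and 697 had no call. Of the shared lower genes, 164 were larger without FOXP3, 34 larger with it, and 709 had no call. Among the 5 genes of opposite sign with the lowest interaction p-values, Neb, which encodes the giant muscle protein nebulin, was at 20.4, 15.3 and 11.8 CPM in CD25+ progenitors and 68.8, 80.7 and 59.5 in mature Tregs, against 59.3, 62.6 and 52.1 in conventional cells and 8.56, 10.7 and 9.68 in FOXP3lo progenitors. It fell by 1.88 without FOXP3 and rose by 2.85 with it (interaction adjusted p = 2.5e-20). Gpr83, a receptor enriched in Tregs, was at 12.4, 14.9 and 11.1 CPM in CD25+ progenitors and 212, 202 and 189.6 in mature Tregs, against 28.8, 30.7 and 28.1 in conventional cells and 38.3, 43.4 and 42.2 in FOXP3lo progenitors, with −1.19 ± 0.11 without FOXP3 and 2.28 ± 0.099 with it. Hip1r, an endocytic actin-binding protein, had 2.65 ± 0.13 without FOXP3 and −0.62 ± 0.11 with it, Cyth3, an exchange factor for ARF proteins, 2.04 ± 0.086 without FOXP3 and −0.30 ± 0.080 with it, and Sox4, a transcription factor of immature lymphocytes, 1.00 ± 0.076 without FOXP3 and −1.07 ± 0.078 with it. The averaged CD25 effect of Sox4 was −0.037 ± 0.054 (adjusted p = 0.666) and was not called.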

How the data were processed

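Libraries were made from total RNA of sorted thymocytes with a stranded SMARTer Pico Input kit, per the labels' protocols. The deposited table holds raw counts per gene, which the authors counted on the reverse strand at mapping qualities of 10 or more, using featureCounts 1.6.2 and GRCm38 gene models of Ensembl 97, per the file headers. The submitters' processing notes name Trimmomatic 0.33, HISAT2 2.1.0 and featureCounts 1.4.6. Coordinates are those of the deposited table (GRCm38). It gives Ensembl IDs, so 36333 of 55573 genes received symbols by matching gene positions to RefSeq (GRCm38.p6).

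The 12 libraries were fitted together with edgeR 4.0.16 (R 4.3.3) after filterByExpr and TMM scaling, with 4 gate means, robust quasi-likelihood tests and Benjamini-Hochberg adjustment over 15648 genes. The fit was tested on simulated data with known changes. The biological coefficient of variation was 0.1838. A shared gene passed an adjusted p of 0.05 in both contrasts with the same sign. No replicate pair agreed within sampling noise in its counts. The replicate numbers 40, 42 and 43 were taken to mark the 3 biological replicates that the series' design text mentions. Deviations from the gate means correlated between −0.01036 and 0.05379 in same-numbered pairs of libraries, and between −0.06477 and 0.03311 in other pairs. Alternatives used DESeq2 1.42.0, limma-voom (limma 3.58.1), other scalings and filters, a replicate block, other sets of libraries and a fold threshold.

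The comparison, its 25 gene lists and the naming rule were chosen with earlier results of these data known. Lists held 643 entries, of which 632 had a symbol in the table. Named genes were the 12 shared genes in each direction with separate libraries, a mean of at least 5 CPM on the higher side and the largest smaller difference, the sort genes, up to 4 members per list with the lowest adjusted p, 5 genes of opposite sign and the genes at the edge of the rule. Other genes, among them Myc, Socs3, Bcl2, Klf2, Jak1, Jak3, Mcm2 and the early growth response genes, were chosen after their values were seen, as were the genes that complete a small count. Some genes named by the rule are not reported here.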

Additional observations from a re-analysis of the deposited data

Results flagged for a closer look

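The difference between the contrasts (the log2 difference with FOXP3 minus that without) passed edgeR's quasi-likelihood test at an adjusted p under 0.05 for many of the genes named above, and its values are given here without an explanation. Among shared higher genes with a smaller difference with FOXP3, the values were −5.44 for Xcl1, −5.12 for Trgc2, −3.95 for Rgs16, −3.65 for Bcat1, −3.34 for Bhlhe40, −3.09 for Pdzk1ip1, −2.65 for Ikzf2, −2.23 for Cd83 and −2.21 for Irf8. Next came −1.82 for Slc16a3, −1.66 for Serpine2, −1.55 for Lrrc32, −1.54 for Il2ra, −1.50 for Ccr6, −1.49 for Nr4a3, −1.36 for Myb, −1.30 for Cd24a and −1.27 for Rora. Smaller ones were −1.22 for Canx, −1.21 for Cd74, −1.20 for Swap70, −1.20 for Sdc4, −0.95 for Il2rb, −0.72 for Nfkb2, −0.68 for Ncl, −0.67 for Cd44 and −0.65 for Dusp5. The smallest were −0.54 for Npm1, −0.38 for Cish and −0.37 for Utp20. Myc, a shared higher gene with a larger difference with FOXP3, had a value of 0.51. Among shared lower genes that fell less with FOXP3, the values were 1.35 for Ms4a6b, 1.33 for Gimap3, 1.11 for S1pr1, 1.06 for Gimap4, 0.83 for Ifi208, 0.73 for Nlrc5, 0.71 for Ddx58, 0.68 for Nab2, 0.66 for Pdk1, 0.62 for Zbp1, 0.45 for Satb1, 0.45 for Slfn8, 0.37 for Ldb1 and 0.36 for Lef1. Vipr1, a shared lower gene that fell more with FOXP3, had a value of −0.88. Among genes that were not shared, the values were 4.73 for Neb, 3.47 for Gpr83, 1.96 for Socs3, 1.51 for Bcl2, 1.17 for Tmem154, 1.04 for Itgb7, 0.87 for Klf2, −1.84 for Ms4a4c, −1.85 for Tnfrsf1b, −1.98 for Epcam, −2.07 for Sox4, −2.34 for Cyth3, −3.27 for Hip1r and −4.43 for Rag1. All of these are differences in the size or sign of an effect between 2 pairs of gates, and in the contrast with FOXP3 the FOXP3 level differs too.

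In the Bst2+ gate, whose libraries entered none of the main comparisons, the lowest library held 163 CPM of Il2ra. This level was scaled over all 15 libraries, while the levels of the other gates above were scaled over 12. It lay above every library of the conventional CD4SP and FOXP3lo gates and below every library of CD25+ progenitors and mature Tregs.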

How the results depend on the processing

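The fit of all 15 libraries, in which the spread of the Bst2+ gate enters the shared estimate, called 499 shared genes, 265 higher and 234 lower, with 2255 genes for the CD25 effect, 1871 without FOXP3, 759 with FOXP3, 378 for the difference between the contrasts, 3000 for the FOXP3 effect and 24 of opposite sign. The cause of this fall was not tested. A test against a fold of 1.5, which asks for larger changes, called 219 shared genes, 137 higher and 82 lower, with 869, 1152, 412, 369, 1349 and 12 for the same results in that order. All shared genes of both settings were among the 1793. With the replicate block, the pairing by number gave 1838 shared genes and 5161 for the CD25 effect. The block moved no count of calls by over 1.5 times. DESeq2 gave 1858 shared genes, limma-voom 1796, RLE scaling 1782, upper quartile scaling 1806, no filter on low counts 1606, at least 2 CPM 1839, leaving out the 20 most abundant genes 1791, and each pair of gates fitted alone 1755. Leaving out 1 library at a time gave 1503 to 1697 shared genes (739 to 830 higher, 743 to 867 lower), 122 to 164 of opposite sign, and 4628 to 5067 genes for the CD25 effect, 3878 to 4704 without FOXP3, 2312 to 2985 with FOXP3, 1401 to 1610 for the difference and 5620 to 6036 for the FOXP3 effect.

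Of 2551 values of the CD25 effect of named genes under the alternatives, 2511 kept their direction and side of the threshold, 35 were no longer called and 5 became called, and 0 changed sign while called. Of 99 named shared genes, 37 were shared in all 23 alternatives, 34 were not shared with all 15 libraries, 53 not at a fold of 1.5 and 8 not without 1 of the libraries. Ldb1, at the edge of the rule, was not shared in 12 alternatives. With 3 libraries a gate, a gene that was not called is not shown to be equal between the gates.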
